A study of Mus musculus with 12 samples.

Results

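Fos, Fosb, Fosl2, Jun, Junb, Jund, Atf3, Egr1, Myc and Max encode immediate early transcription factors, Myc and the partner of Myc. They were followed in RNA sequencing of mouse bone marrow neutrophils cultured with or without bile acids. The 10 genes were taken by symbol from the 29737 rows of the count table, and all 10 were among the 16761 genes that passed the filter on low counts. The list was chosen by measured values: it was drawn up with the lower level of Myc in the samples treated with tauro-β-muricholic acid (Tβ-MCA) already known. The contrast of Tβ-MCA with PBS is therefore given for these genes as a description: no p is printed for a member there, and the number of members that the fit called is set beside that of all genes without anything being read from it. Neutrophils came from wild-type female C57BL/6 mice aged 4 to 6 weeks, and the labels describe them as Ly6G+ cells isolated with magnetic beads and kept in RPMI medium with serum. Cells received PBS as vehicle, taurocholic acid (TCA, the taurine conjugate of cholic acid), glycocholic acid (GCA, the glycine conjugate) or Tβ-MCA, the taurine conjugate of a muricholic acid of rodents, for 24 h, with 3 samples per group. TCA and GCA were used at 200 µM. The dose of Tβ-MCA is 10 µM in the sample labels and 200 µM in the methods, so it was compared with PBS alone and not with the cholic acid conjugates. The sources do not say whether the samples of a group came from separate animals, and p-values measure only the spread between these samples.

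Immediate early genes are transcribed within minutes of a signal without new protein synthesis, and many of their mRNAs decay quickly. FOS and JUN proteins pair through leucine zippers to form the AP-1 factor. EGR1 is a zinc finger factor induced by many of the same signals. MYC binds DNA as a dimer with MAX and drives genes of growth and ribosome production. In the neutrophil lineage, MYC is a factor of proliferating precursors, and its transcript is low in mature cells. Cells were sampled after 24 h, long after the first wave that follows a stimulus.

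Total counts ran from 32757389 to 41375925 per sample, and 3 counts corresponded to between 0.0725 and 0.0931 CPM (counts scaled to a common library size, with TMM factors). Neutrophil markers were present in every sample, and the 12 markers summed to between 39900 and 61300 CPM. Tβ-MCA replicate 5 stood nearer to PBS than did Tβ-MCA replicates 3 and 4, and results of that group are given with and without it. That sample was singled out by its measured values. Leaving it out tends to widen differences from PBS by construction, so larger falls and more calls without it are not separate evidence. Markers of monocytes and macrophages summed to between 1260 and 1330 CPM with PBS, 1130 and 1360 CPM with TCA, and 976 and 1310 CPM with GCA. With Tβ-MCA this sum was 433, 552 and 1070 CPM in replicates 3, 4 and 5. Eosinophil markers summed to between 138 and 241 CPM with PBS and to 78.5, 54.1 and 124 CPM in Tβ-MCA replicates 3, 4 and 5, without overlap. T and NK cell markers summed to between 3.29 and 4.74 CPM with PBS and 1.88 and 2.68 CPM with Tβ-MCA, also without overlap. B cell markers summed to between 40.8 and 57.0 CPM with PBS and 38.0 and 42.4 CPM with Tβ-MCA, and erythroid markers to between 1.13 and 3.01 CPM over all samples. In bulk samples, fewer cells of a type and less RNA per cell cannot be told apart.

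The sequences just before the transcription start are shown for Fos, Fosb, Fosl2, Jun, Junb and Atf3, the members whose start regions held a searched motif. Each is the last 120 bases before the RefSeq start (GRCm38.p6), 5′ to 3′ on the strand of the gene, and capitals mark motif matches. The windows lie at chr12:85473770-85473889 (Fos, plus strand), chr7:19310046-19310165 (Fosb, minus strand), chr5:32136352-32136471 (Fosl2, plus strand), chr4:95052223-95052342 (Jun, minus strand), chr8:84978749-84978868 (Junb, minus strand) and chr1:191183334-191183453 (Atf3, minus strand).
Fos: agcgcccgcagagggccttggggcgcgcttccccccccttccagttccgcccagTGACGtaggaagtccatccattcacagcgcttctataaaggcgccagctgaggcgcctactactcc
Fosb: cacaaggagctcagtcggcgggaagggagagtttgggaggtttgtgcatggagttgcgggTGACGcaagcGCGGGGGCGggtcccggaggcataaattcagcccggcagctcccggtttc
Fosl2: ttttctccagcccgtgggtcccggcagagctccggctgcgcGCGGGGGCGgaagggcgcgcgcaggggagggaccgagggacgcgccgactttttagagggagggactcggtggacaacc
Jun: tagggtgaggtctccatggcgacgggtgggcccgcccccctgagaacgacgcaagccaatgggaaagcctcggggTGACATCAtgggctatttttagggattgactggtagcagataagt
Junb: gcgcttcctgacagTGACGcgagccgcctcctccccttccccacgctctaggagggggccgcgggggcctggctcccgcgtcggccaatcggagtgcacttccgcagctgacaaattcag
Atf3: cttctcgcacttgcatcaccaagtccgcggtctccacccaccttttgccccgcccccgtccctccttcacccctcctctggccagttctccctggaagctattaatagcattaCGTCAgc

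The search covered both strands of the 250 bases before each start, in 8 members with an entry (Fos, Fosb, Fosl2, Jun, Junb, Jund, Atf3 and Max). The start used for Jund lay upstream of the gene bounds given below: its region ended at chr8:70697788 and the gene begins at chr8:70698949. The starts used for Fosl2 and Atf3 lay inside their genes. Matches and misses in these members concern those starts only. The motif TGACG, the core of the cAMP response element, lay in Fos, Fosb, Junb and Atf3, against 17.8% of 32851 promoters. This motif was added after the windows had been seen. TGACNTCA, which holds the full element and the site for JUN dimers, lay in Jun at 45 to 38 bases before the start, against 7.49% of promoters. GCGNGGGCG, the letters of the EGR1 site, lay in Fosb at 50 to 42 bases and in Fosl2 at 79 to 71 bases before the start, against 4.7% of promoters. No window held TGANTCA (the AP-1 site, 6.75% of promoters), CACGTG (the E-box of MYC and MAX, 6.02%) or the CArG box of serum response factor (1.47%). Sites farther than 250 bases before a start, and all sites of Egr1 and Myc, which had no entry, were outside the search. The missing CArG box of Fos concerns these 250 bases only and says nothing of the region beyond. TGACG overlaps TGACNTCA where N is G. These are matches of letters and say nothing of binding in these cells.

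Max and Fos were the most abundant of the 10 transcripts per length, and Myc and Fosb the least. In PBS samples Max had a mean of 199.8 ± 17.6 RPKM (reads scaled to exon length and library depth, ± SD, n = 3) and ranked 247 from the top among 16760 genes. Fos followed with 102.4 ± 30.2 RPKM, Jun with 64.88 ± 6.52 and Junb with 60.7 ± 10.1 RPKM. The ranges of Jun and Junb overlapped, and those of Fos and Jun (72.12 to 132.6 and 58.24 to 71.27 RPKM) did not. Jund had 24.01 ± 2.09, Fosl2 15.38 ± 0.304, Egr1 12.34 ± 5.22 and Atf3 6.659 ± 0.797 RPKM, and the range of Egr1 (7.376 to 17.78 RPKM) took in that of Fosl2 but not that of Atf3. Myc had 2.279 ± 0.571 RPKM and ranked 9414, and Fosb had 0.2686 ± 0.213 RPKM and ranked 14695. Replicates spread unequally. The coefficient of variation over PBS samples was 78.8% for Fosb, 41.9% for Egr1, 29% for Fos and 26.2% for Myc, and 2.99% for Fosl2. For comparison, the 8044 genes at 10 CPM or more had a median of 6.46% and a 95th percentile of 17.4%. Fosb and Myc, with means of 1.687 and 6.279 CPM, lay below that limit, so these values come from more abundant genes.

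**Figure D1:**
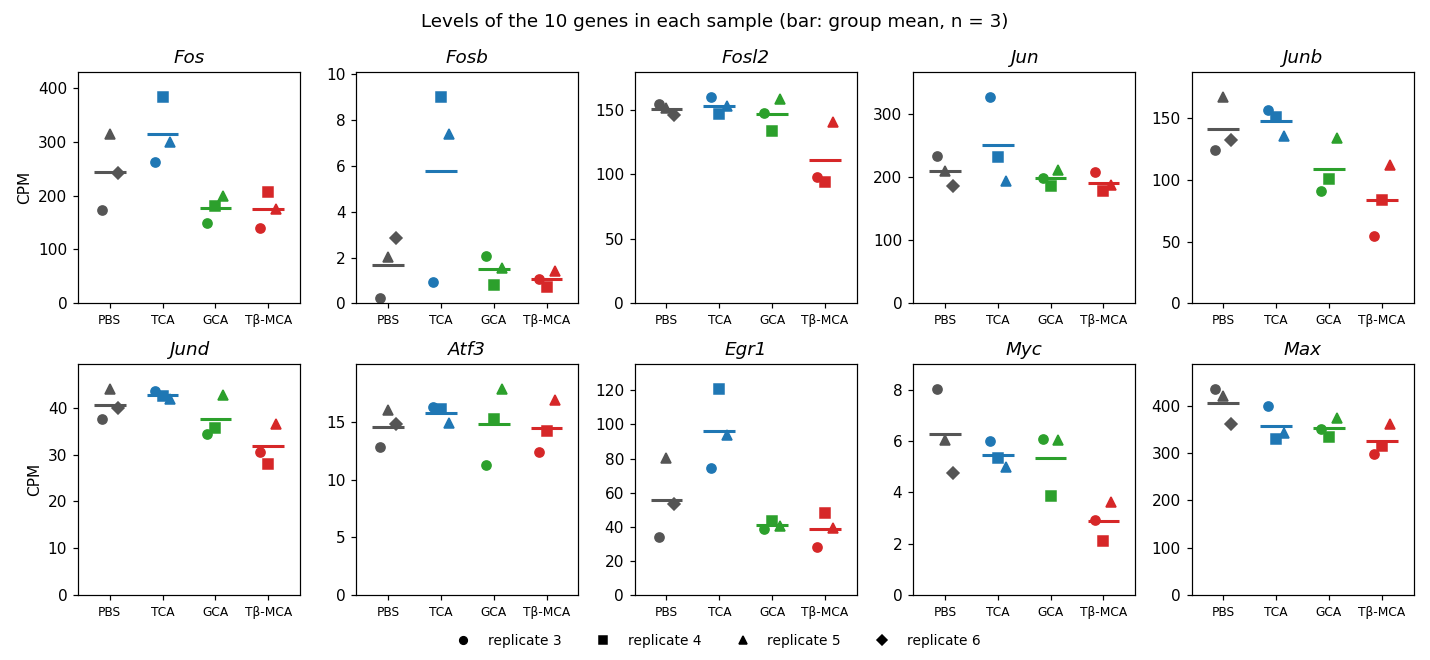
CPM of each of the 10 genes (linear axes from 0) in the 12 samples, grouped by treatment; each symbol is a sample, its shape gives the replicate number and the bar is the group mean (n = 3). Fos and Egr1 stand higher in all TCA samples than in all GCA samples, and Myc in every Tβ-MCA sample (2.133 to 3.613 CPM) lies below every PBS sample (4.773 to 8.033 CPM).

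Fos was the dominant FOS gene of these neutrophils, and its levels parted between the 2 cholic acid conjugates. Fos encodes the AP-1 subunit for which the family is named (ENSMUSG00000021250, GRCm38 chr12:85473890-85477273). It stood at 173.8, 314.8 and 241.8 CPM in PBS replicates 3, 5 and 6. With TCA it stood at 261.8, 383.5 and 298.8 CPM in replicates 3, 4 and 5, and with GCA at 149.7, 180.4 and 198.6 CPM. The TCA and GCA samples did not overlap, and PBS samples reached into both ranges. GCA lay below TCA by a log2 fold change of -0.84 (SE 0.237, or 0.5599-fold), unadjusted p = 0.00628 (adjusted p = 1) by the edgeR quasi-likelihood test. Against PBS the log2 fold change was 0.37 for TCA (SE 0.236, unadjusted p = 0.15 by edgeR) and -0.47 for GCA (SE 0.237, unadjusted p = 0.0797 by edgeR). Fos was the only one of the 10 genes whose longest annotated 3′ UTR (GENCODE vM21) holds the AU-rich nonamer ATTTATTTA, an element of unstable mRNAs found in 6.49% of 12113 genes. The site, shown with its neighbours and the nonamer in capitals, starts at base 653 of the UTR.
Fos 3′ UTR: tgttttcaATTTATTTAttaagatg

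Egr1 showed the same order of groups as Fos. Egr1 (ENSMUSG00000038418, on chromosome 18) stood at 33.88, 80.48 and 53.29 CPM with PBS, 74.66, 120.8 and 93.49 CPM with TCA and 39.01, 43.28 and 40.64 CPM with GCA. Every TCA sample exceeded every GCA sample, and the GCA samples spread little. GCA lay below TCA by a log2 fold change of -1.23 (SE 0.318, 0.4252-fold), the widest gap of the 10 genes apart from that of the scarce Fosb (unadjusted p = 0.00388, adjusted p = 1 by edgeR). TCA lay above PBS by 0.79 (SE 0.314, 1.725-fold, unadjusted p = 0.0341, adjusted p = 1 by edgeR), and one PBS sample lay inside the TCA range. GCA differed from PBS by -0.45 (SE 0.316, unadjusted p = 0.192 by edgeR).

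Fos and Egr1 followed each other from sample to sample. Over the 12 samples their log2 CPM had a Pearson r of 0.97 and a Spearman rho of 0.98, and r was 0.94 without the 2 samples farthest from the median of Fos. The deviations from the group means gave r = 0.95. Replicate 3 was the lowest sample of every group for both genes, so part of this likeness went with the replicate number. PBS replicate 5 was the highest PBS sample for both. This pair had the highest r of the 45 pairs of members and the only one over 0.9, and it was picked for that, so no p is given. Among the genes that are not members, the 5 closest to Fos were Gm34342 (r = 0.91), Ginm1 (r = 0.89), Gm26603 (r = 0.88), B430306N03Rik (r = 0.87) and the immediate early gene Btg2 (r = 0.87). Gm34342 had a mean of only 0.196 CPM. None of the 5 stayed among the 5 closest when deviations from the group means were used. Fosb had r = 0.72 with Egr1 and 0.65 with Fos.

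Fosb, the scarcest member, had the same order of group means as Fos (TCA, PBS, GCA, Tβ-MCA) with a far wider spread between samples. The gene (ENSMUSG00000003545, chr7:19302696-19310051) is a relative of Fos that is likewise induced early, and it had between 8 and 373 counts per sample. It stood at 0.2295, 2.001 and 2.832 CPM with PBS, 0.9305, 9.016 and 7.391 CPM with TCA and 2.084, 0.802 and 1.556 CPM with GCA. TCA replicates 4 and 5 were the 2 highest samples of the series, and TCA replicate 3 lay within the range of the other groups. The log2 fold change was 1.78 for TCA against PBS (SE 0.858, unadjusted p = 0.069) and -1.97 for GCA against TCA (SE 0.868, unadjusted p = 0.0502), with adjusted p = 1 for both by edgeR. Fosl2 (ENSMUSG00000029135, chr5:32135801-32157842) encodes FRA2, an AP-1 subunit of later and more sustained expression. It stood at 154.9, 151.2 and 145.9 CPM with PBS, 160.2, 147.1 and 152.7 CPM with TCA and 147.7, 133.4 and 158.1 CPM with GCA. These 3 groups overlapped. Its interval (±2 SE) for GCA against TCA ran from 0.808-fold to 1.13-fold. By RPKM, Fos made up 85.8% ± 3.75 (SD, n = 3) of the FOS family sum with PBS, which also counts the related Fosl1, and 88.5% ± 1.95 with TCA and 82.5% ± 2.28 with GCA.

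**Figure D2:**
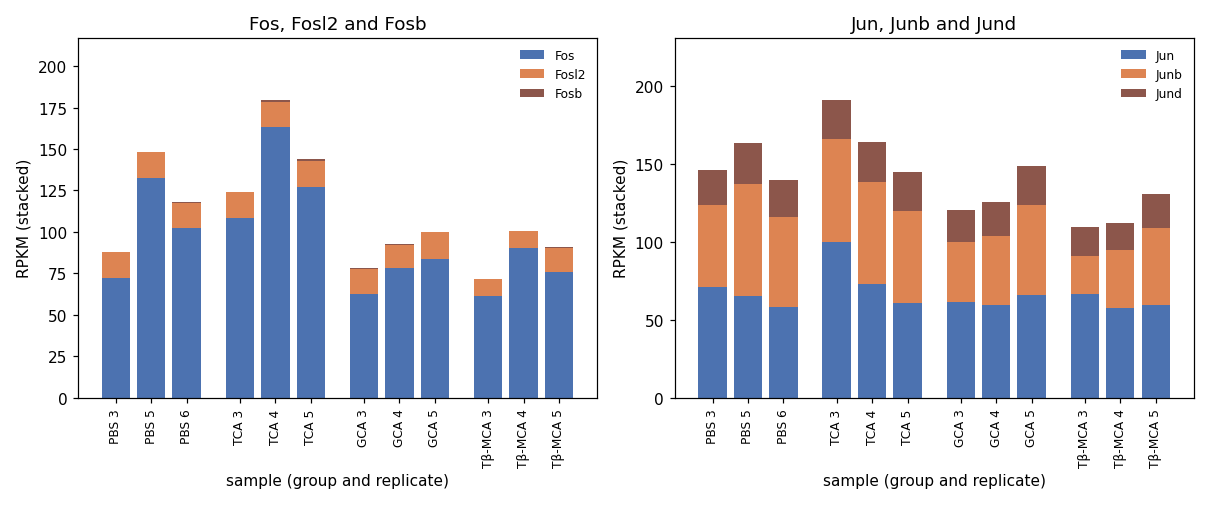
RPKM of the FOS genes (left) and JUN genes (right) stacked in each of the 12 samples; the height of each coloured part is the RPKM of that gene. Fos fills most of every left bar and Fosb is hardly visible, whereas Jun and Junb share most of the right bars with Jund as a smaller part.

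Among the JUN genes, Junb separated the TCA from the GCA samples by a narrow gap, and Jun and Jund did not separate them. Junb encodes the JUN protein that is a negative regulator of myeloid proliferation (ENSMUSG00000052837, chr8:84974484-84978718). It stood at 123.9, 167.4 and 132.6 CPM with PBS, 157.0, 151.1 and 135.9 CPM with TCA and 91.09, 100.5 and 134.0 CPM with GCA. Its log2 fold change for GCA against TCA was -0.45 (SE 0.245, unadjusted p = 0.101 by edgeR). Jun (ENSMUSG00000052684, chr4:95049034-95052222), the transactivating partner of Fos, stood at 232.8, 209.7 and 186.2 CPM with PBS, 327.1, 232.0 and 193.6 CPM with TCA and 198.4, 185.4 and 211.8 CPM with GCA. TCA replicate 3 was the highest sample for Jun, although it was the lowest TCA sample for Fos, Fosb and Egr1. Jun differed between GCA and TCA by -0.34 (SE 0.159, unadjusted p = 0.0576 by edgeR). Jund (ENSMUSG00000071076, chr8:70698949-70700616), which is expressed more constantly than its relatives, lay between 37.52 and 44.02 CPM with PBS, 41.86 and 43.52 CPM with TCA and 34.42 and 42.59 CPM with GCA. Antisense transcripts overlap 3 of these genes and the strand setting of the counting is not given in the sources used here. Gm11175, which overlaps Jund, had between 672 and 1164 counts per sample against at least 1024 for Jund, and the count of Jund is uncertain for that reason. Junos had at most 823 counts against at least 6472 for Jun, and Prdx2 at most 290 against at least 1830 for Junb.

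Atf3 overlapped between all groups. Atf3, a stress-induced factor that dimerizes with JUN proteins (ENSMUSG00000026628, chr1:191170296-191218039), stood at 12.77, 15.98 and 14.78 CPM with PBS, 16.28, 16.07 and 14.86 CPM with TCA, 11.27, 15.24 and 17.84 CPM with GCA and 12.38, 14.15 and 16.84 CPM with Tβ-MCA. Its log2 fold change was 0.12 for TCA against PBS (SE 0.15), with an interval of 0.881-fold to 1.34-fold, and 0.03 for GCA against PBS (SE 0.151), with an interval of 0.827-fold to 1.26-fold.

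Myc passed no test with either cholic acid conjugate. The gene (ENSMUSG00000022346, chr15:61985391-61990374) stood at 8.033, 6.032 and 4.773 CPM with PBS, 6.017, 5.342 and 4.982 CPM with TCA and 6.084, 3.867 and 6.043 CPM with GCA. These samples had between 135 and 280 counts of Myc, and the groups overlapped. The log2 fold change was -0.21 for TCA against PBS (SE 0.221, unadjusted p = 0.368 by edgeR), -0.23 for GCA against PBS (SE 0.221, unadjusted p = 0.308 by edgeR) and -0.03 for GCA against TCA (SE 0.222), where the interval ran from 0.721-fold to 1.33-fold. Max (ENSMUSG00000059436, chr12:76937269-76962248), the obligate partner, stood at 435.5, 420.5 and 361.0 CPM with PBS, 399.9, 330.6 and 341.5 CPM with TCA and 350.2, 333.0 and 374.2 CPM with GCA. GCA lay below PBS by -0.20 (SE 0.092, 0.8689-fold, unadjusted p = 0.0437, adjusted p = 0.999 by edgeR), and the ranges overlapped.

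Counted over the 10 genes, none passed an adjusted p of 0.05 by edgeR in these 3 comparisons, and neither did any of the 16761 genes tested (0%). DESeq2 called 0 genes for GCA against PBS, 1 for TCA against PBS, which was not a member, and 0 for GCA against TCA. At an unadjusted p of 0.05 by edgeR, 1 of the 10 members passed in GCA against PBS (Max) against 3.53% of all genes (591 genes). In TCA against PBS, 1 passed (Egr1) against 3.26% (546 genes). In GCA against TCA, 2 passed (Fos and Egr1) against 2.46% (412 genes). The threshold of the study's methods, an unadjusted p of 0.05 with a 2-fold change, was met by none of the 10 in GCA against PBS (0.531% of all genes) and TCA against PBS (0.465%), and by Egr1 in GCA against TCA (0.442%). All 10 fold changes were negative for GCA against TCA, with a median of -0.26 beside 0 over all genes tested. Those of Fosl2 (-0.066), Atf3 (-0.089), Myc (-0.028) and Max (-0.02) were smaller than their SE. Atf3, Myc and Max turned sign when some single samples were left out. Fos and Egr1 followed each other over the samples, so the 10 signs are not independent. No member had groups that did not overlap in GCA against PBS (9.55% of all genes) or TCA against PBS (9.67%). In GCA against TCA, 3 did so (Fos, Junb and Egr1), against 8% of all genes, or 4.19% counting only genes lower with GCA. The comparisons share the PBS or TCA samples and are not independent of each other.

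**Figure D3:**
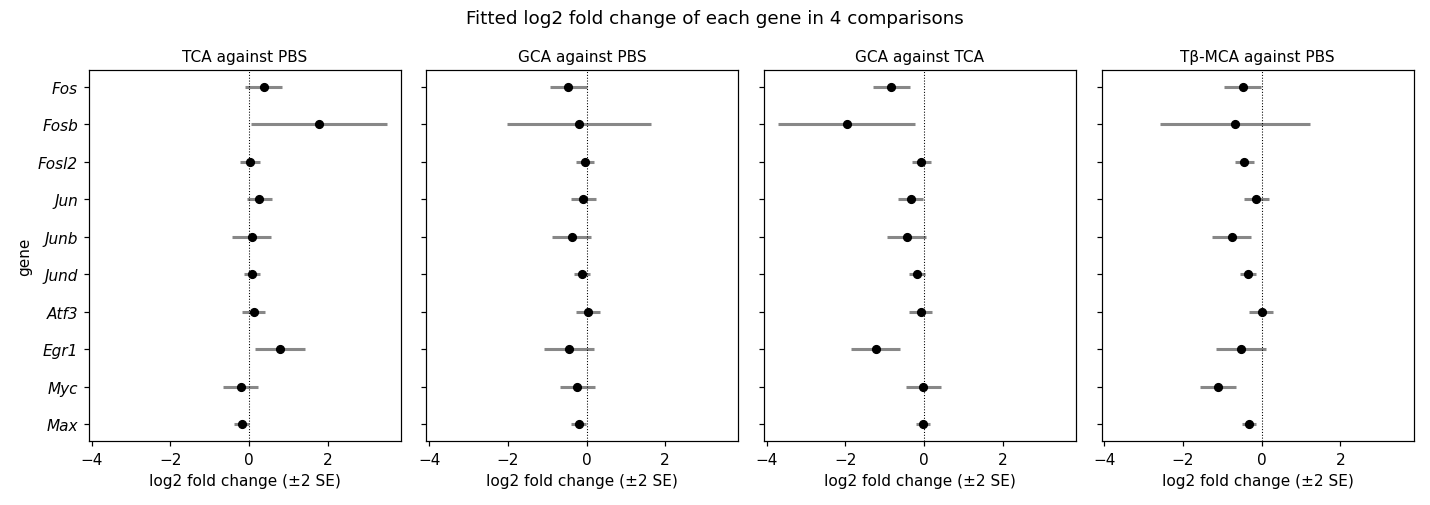
Fitted log2 fold change of each gene (points) with ±2 SE (lines) in the 4 comparisons; values left of the dotted line are lower in the first-named group. The widest lines belong to Fosb, the scarcest transcript, and in GCA against TCA all 10 points lie left of 0, with Egr1 at -1.23 and Fos at -0.84. In that comparison the lines of Fosl2, Junb, Jund, Atf3, Myc and Max cross 0.

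With Tβ-MCA, the level of Myc, by which the list was chosen, was 2.931, 2.133 and 3.613 CPM in replicates 3, 4 and 5 (98, 79 and 135 counts), with a mean of 2.893 ± 0.741 CPM against 6.279 ± 1.64 CPM with PBS (SD, n = 3 each). The fitted log2 fold change was -1.12 (SE 0.231). Without Tβ-MCA replicate 5 it was -1.31 (SE 0.251), a wider gap that follows from leaving out the sample nearest to PBS. Max stood at 298.8, 314.1 and 360.5 CPM, and its log2 fold change was -0.32 (SE 0.092). The highest of these lay only just below the lowest PBS sample (361.0 CPM). The ratio of Max to Myc per length, in RPKM, was 158 on average with Tβ-MCA (135 to 199 over 3 samples), against 90.1 with PBS (73.5 to 102), 88.9 with TCA (83.9 to 92.9) and 92.9 with GCA (78.0 to 117).

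Besides Myc and, by a very narrow gap, Max, the members whose Tβ-MCA samples all lay below the PBS samples were Fosl2, Junb and Jund. Of all genes tested, 12.8% were lower without overlap in this way. Fosl2 stood at 97.70, 94.38 and 140.6 CPM with Tβ-MCA, a log2 fold change from PBS of -0.44 (SE 0.122), and -0.65 (SE 0.076) without replicate 5. Junb stood at 54.74, 83.31 and 112.0 CPM, a log2 fold change of -0.76 (SE 0.247), and -1.03 (SE 0.221) without replicate 5. Jund stood at 30.63, 28.03 and 36.59 CPM, a log2 fold change of -0.35 (SE 0.103). For Fosl2, Junb, Jund, Myc and Max, replicate 5 was the highest of the 3 samples, as it was for the sum of monocyte and macrophage markers. The same held for Fosb and Atf3, whose samples overlapped with PBS, so this order was not particular to the lower genes. Of the 12 monocyte and macrophage markers, 0 passed the adjusted test with all samples and 9 were lower without replicate 5. None was at 0 in all Tβ-MCA samples. Of all genes tested in each fit, 3.18% were called lower with all samples and 9.44% without replicate 5. Of the 5 eosinophil markers 1 was lower (Siglecf, adjusted p = 0.0326 by edgeR), and of 7 tested B cell markers 1 was lower (Cd79a, adjusted p = 0.0326 by edgeR), while 0 of 7 tested T and NK cell markers passed. All 5 eosinophil markers had negative fold changes, and replicate 5 had the highest sum of the 3 Tβ-MCA samples for eosinophil and for T and NK cell markers too. The part of these cell types in the levels of the 5 genes was not tested. The myeloid precursor gene Mpo moved in the same order, with 195 to 209 CPM with PBS and 32.3, 44.5 and 154 CPM in Tβ-MCA replicates 3, 4 and 5. The 10 markers of granulocyte progenitors summed to between 2620 and 3150 CPM with PBS and 2660 and 2860 CPM with Tβ-MCA. Most of that sum came from the proliferation genes Mki67 and Top2a, at 1740 to 2160 and 528 to 625 CPM with PBS. They stood at 1810 to 2080 and 575 to 638 CPM with Tβ-MCA. Elane stood at 21.8, 27.8 and 25.9 CPM with PBS and 2.72, 5.94 and 19.2 CPM in Tβ-MCA replicates 3, 4 and 5. Of the 10 fold changes, 7 were negative and 3 positive. With all samples 0 of 10 passed the adjusted test, and 6 were lower without replicate 5. Of the 12 neutrophil markers, 5 were lower, and their sum was 39900 to 45300 CPM against 49700 to 61300 CPM with PBS.

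The remaining members overlapped with PBS. Fos stood at 140.7, 206.3 and 175.7 CPM with Tβ-MCA, a log2 fold change of -0.48 (SE 0.237), and Egr1 at 28.57, 48.28 and 39.24 CPM, one of -0.53 (SE 0.317). Jun stood at 208.2, 178.0 and 186.9 CPM, one of -0.13 (SE 0.159). Fosb had 1.047, 0.7291 and 1.392 CPM. Jun made up 52.5% ± 7.77 of the RPKM of the 3 JUN genes with Tβ-MCA, against 43.5% ± 4.76 with PBS, and Junb 31.0% ± 8.0 against 40.4% ± 4.08. The ranges of both shares overlapped between the groups, at 45.4% to 60.8% against 39.9% to 48.9% for Jun and 22.1% to 37.7% against 36.1% to 44.1% for Junb.

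The count of members called in this contrast is given beside that of all genes, and nothing is read from it, since the contrast chose the list. Fosl2, Jund, Myc and Max, 4 of 10, had an adjusted p under 0.05, all lower, against 7.62% of all genes called (1278 genes) and 3.18% called lower. The genes called split into 745 higher and 533 lower. Scaled by total library size instead of TMM, 2 of 10 members were called, and all genes called split into 1013 higher and 395 lower. At an unadjusted p of 0.05 there were 5 against 24.9%, and by the threshold of the study's methods 1 (Myc) against 2.95%. The samples of 5 members did not overlap, against 27% of all genes, or 12.8% lower. Without Tβ-MCA replicate 5, 5 members were called, all lower, against 18% of all genes and 9.44% lower. The calls rest on few samples: 0 genes passed when PBS replicate 3, PBS replicate 5, Tβ-MCA replicate 3 or Tβ-MCA replicate 4 was left out, 168 without PBS replicate 6 and 3076 without Tβ-MCA replicate 5.

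Across the 12 samples, the 5 genes whose log2 CPM was most like that of Myc were Ncf1 (r = 0.98), which encodes a subunit of the phagocyte NADPH oxidase, Lpcat4 (r = 0.98), an acyltransferase of phospholipids, Camp (r = 0.98), which encodes the granule peptide cathelicidin, Ilk (r = 0.97), the integrin-linked kinase, and Itgal (r = 0.97), the integrin αL chain. Leaving out Tβ-MCA replicate 5, these values were 0.98, 0.98, 0.98, 0.97 and 0.99. The deviations from the group means gave 0.96 for Ncf1, 0.97 for Lpcat4, 0.92 for Camp, 0.96 for Ilk and 0.95 for Itgal, and 1 of the 5 stayed among the 5 closest. Camp stood at 716, 505 and 468 CPM with PBS and 217, 198 and 350 CPM with Tβ-MCA, so that PBS replicate 3 was highest and Tβ-MCA replicate 4 lowest for both Camp and Myc. Within the list, Fosl2 had r = 0.90 and Max r = 0.79 with Myc, whereas Fos had r = 0.26 (-0.45 for deviations from the group means). These values describe likeness over samples that share their culture groups and were chosen as the highest of all genes, with no test.

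**Figure D4:**
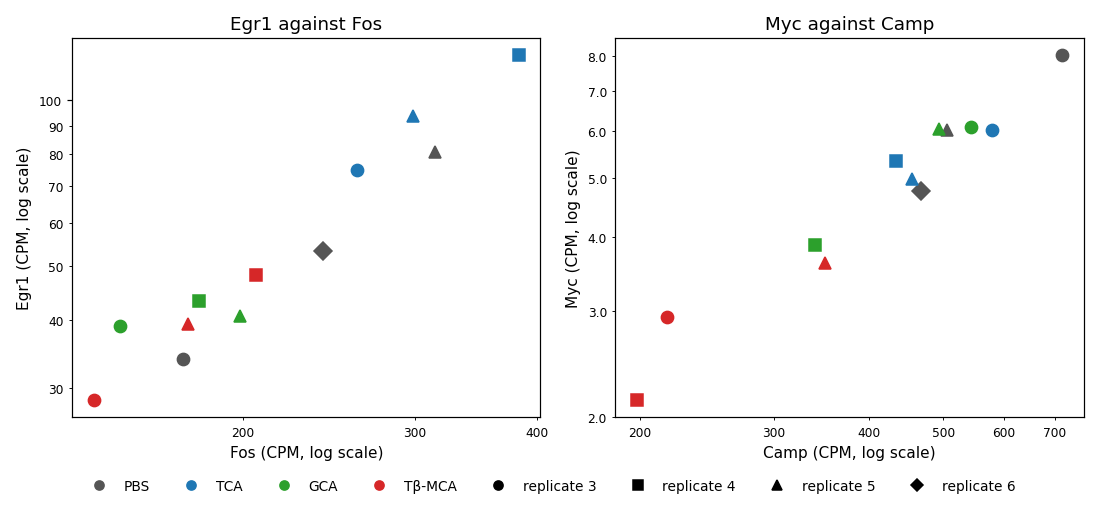
CPM of Egr1 against Fos (left) and of Myc against the granule gene Camp (right) in the 12 samples, on log axes; colour gives the treatment and shape the replicate number. On the left TCA samples lie at the upper right and GCA samples at the lower left; on the right the 3 Tβ-MCA samples lie lowest on the Myc axis and PBS replicate 3 lies highest.

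The other immediate early response genes, which encode factors, phosphatases and kinases that answer the same signals, numbered 26, of which 24 could be tested. With Tβ-MCA, 3 of 24 were lower and 1 was higher by edgeR with Benjamini-Hochberg adjustment. The medians were -0.19 for the list and 0.004 for all genes, of which 3.18% were lower and 4.44% higher. Dusp1, a phosphatase that shuts off MAP kinases, fell from 499, 566 and 463 CPM with PBS to 274, 285 and 400 CPM (log2 fold change -0.67, SE 0.137, adjusted p = 0.0225 by edgeR). Ier2, a small nuclear protein, fell from 67.6, 74.1 and 61.0 CPM to 43.1, 48.6 and 48.4 CPM (-0.53, SE 0.106, adjusted p = 0.0208 by edgeR). Plk3, a stress kinase, fell from 34.8, 43.4 and 40.5 CPM to 15.9, 21.3 and 29.3 CPM (-0.83, SE 0.19, adjusted p = 0.0296 by edgeR). Klf10, a factor induced by TGF-β, rose from 11.9, 17.2 and 17.1 CPM to 22.0, 25.5 and 20.3 CPM (0.55, SE 0.152, adjusted p = 0.0422 by edgeR). Without Tβ-MCA replicate 5, 6 of 24 were lower and 2 higher. None passed when PBS replicate 3 or 5, or Tβ-MCA replicate 3 or 4, was left out. The list was drawn up with earlier results known and its count is not independent evidence of a direction.

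Ier2 and Dusp1 stood lower in every GCA sample than in every TCA sample, in a comparison where no gene passed the adjusted test. The same held for Btg2, Zfp36, Plk3 and the scarce Nr4a2 and Ptgs2, while the scarce Egr3 stood higher in every GCA sample. Of all genes tested, 8% did not overlap in this comparison, and 4.19% were lower with GCA without overlap. Ier2 had 46.6, 51.0 and 59.3 CPM with GCA and 81.6, 67.7 and 64.4 CPM with TCA, a log2 fold change of -0.45 (unadjusted p = 0.00077, adjusted p = 1 by edgeR). Dusp1 had 400, 360 and 432 CPM with GCA and 601, 512 and 498 CPM with TCA, one of -0.43 (unadjusted p = 0.00783, adjusted p = 1 by edgeR). The third by unadjusted p was Btg2, an antiproliferative gene, with -0.21 (unadjusted p = 0.0222, adjusted p = 1 by edgeR). Over the 24 genes, 16 had negative and 8 positive fold changes for GCA against TCA, with a median of -0.06. For TCA against PBS the lowest unadjusted p in this list was that of Plk2, with a log2 fold change of -0.43, and for GCA against PBS also that of Plk2, with -0.42.

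The other AP-1 genes and their dimer partners numbered 16. With Tβ-MCA only Batf3 was lower (log2 fold change -1.53, SE 0.388, adjusted p = 0.0317 by edgeR), from a mean of 1.02 CPM with PBS to 0.3482 CPM, and the median of the list was 0.007. Batf3 is known as a factor of dendritic cells. Serum response factor and its partners, the regulators that act on the CArG boxes of Fos and Egr1, numbered 6, and none passed the adjusted test in any of the 4 comparisons. At an unadjusted p of 0.05, 1 was higher with Tβ-MCA (Elk1, log2 fold change 0.35, unadjusted p = 0.00938, adjusted p = 0.0809 by edgeR) and 1 lower (Elk3, -0.29, unadjusted p = 0.0186, adjusted p = 0.115 by edgeR).

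Some partners and targets of Myc passed the test with Tβ-MCA. None of them passed when PBS replicate 3 or 5, or Tβ-MCA replicate 3 or 4, was left out. These lists too were drawn up with earlier results known, and their counts are not independent evidence of a direction. Of 12 tested genes of the MYC-MAX network, 2 were higher and 1 lower, beside 4.44% of all genes called higher and 3.18% lower. Mxi1 and Mnt, which encode repressors that compete with MYC for MAX, rose. Mxi1 had 417, 424 and 409 CPM with PBS and 549, 522 and 447 CPM with Tβ-MCA (log2 fold change 0.28, SE 0.071, adjusted p = 0.0317 by edgeR), and Mnt had 73.5, 71.8 and 67.6 CPM and 92.3, 83.3 and 82.6 CPM (0.28, SE 0.072, adjusted p = 0.0334 by edgeR). Mlxip, a glucose-sensing relative, fell by 0.26 (SE 0.07, adjusted p = 0.0382 by edgeR). Of 31 tested textbook target genes of MYC, 3 were lower and 0 higher at the adjusted threshold. At an unadjusted p of 0.05, 14 of 31 were lower and 2 higher, beside 12.3% of all genes lower and 12.6% higher. The median of the targets was -0.147 beside 0.004 for all genes. Rrp12, a ribosome assembly factor, fell from 21.7, 22.9 and 22.9 CPM to 14.2, 14.5 and 19.8 CPM (-0.48, SE 0.119, adjusted p = 0.0308 by edgeR). Ranbp1, of nuclear transport, fell by 0.31 (SE 0.079, adjusted p = 0.0324 by edgeR) and Srm, of spermidine synthesis, by 0.78 from a mean of 1.82 CPM (SE 0.226, adjusted p = 0.0468 by edgeR). Without Tβ-MCA replicate 5, 8 of 31 targets were lower and 1 higher, beside 9.44% of all genes lower and 8.52% higher. In the same fit 4 of 12 network genes were higher and 1 lower. The target list was not split by whether MYC raises or lowers a gene, and the 8 include Cdkn1a (-1.09, SE 0.195). These counts therefore do not give a direction of MYC action. With TCA or GCA against PBS, and with GCA against TCA, none of these genes passed the adjusted test. The smallest unadjusted p values among the targets against PBS were those of Odc1 with TCA, at a log2 fold change of 0.42 (unadjusted p = 0.00743 by edgeR), and of Ldha with GCA, at -0.20 (unadjusted p = 0.00696 by edgeR).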

How the data were processed

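RNA of 12 neutrophil cultures (PBS, TCA, GCA and Tβ-MCA, 3 each) was sequenced from a stranded mRNA library kit. According to the submitters' processing notes and the methods, the authors trimmed reads with Trimmomatic (0.36), aligned them to GRCm38 with STAR (2.5.3a), counted reads per gene in exons with featureCounts (Subread 1.5.1) and calculated RPKM. The deposited table holds counts and RPKM per gene. Columns headed GA were taken as GCA, the treatment that the sample titles name. RPKM were used to compare levels between genes. The ratio of Max to Myc and the shares within the FOS and JUN families, in RPKM, were also described by group. No test used RPKM.

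Counts were tested in edgeR (4.0.16, R 4.3.3) with TMM scaling, filterByExpr by group and the robust quasi-likelihood test. All 12 samples entered 1 fit, and p-values were adjusted by the Benjamini-Hochberg method over 16761 genes. Log2 CPM used a prior count of 2. DESeq2 (1.42.0), other scalings, other filters, a replicate block, fits of 2 groups and leaving out each sample were alternatives. The fit was tested on simulated data. Replicates of a group differed by more than sampling noise, so none was merged. Depth was 32757389 to 41375925 counts, and intervals given are ±2 SE.

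The members and gene lists were chosen with earlier results of these data known. Named genes were all members, list genes that passed the adjusted test (otherwise up to 3 of the lowest p) and the 5 genes most like Myc and Fos.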

Additional observations from a re-analysis of the deposited data

How the results depend on the processing

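Of 516 recomputed fold changes of members, 453 kept their direction and their side of the threshold, 26 lost the call, 16 gained one and 21 turned sign. Without a filter on low counts, edgeR called 36 genes and 3 members in GCA against PBS, 37 and 3 in TCA against PBS, 42 and 5 in GCA against TCA and 2406 and 7 in Tβ-MCA against PBS. That fit tested 29737 genes, and its infinite prior degrees of freedom replaced the spread of each gene by the trend. DESeq2 called 2103 genes with Tβ-MCA and 1 with TCA against PBS, and the cause was not tested. Under total library size the genes called with Tβ-MCA were 1013 higher and 395 lower, against 745 and 533 with TMM, 2 members were called and Atf3 turned to 0.043. Fitted alone, the Tβ-MCA and PBS groups gave 0 genes (3485 at an unadjusted p under 0.05) and 0 members, with fewer samples behind the spread. Leaving out 1 sample gave between 0 and 3076 genes and 0 and 5 members with Tβ-MCA, and 0 in the other comparisons.

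When 1 sample was left out, log2 fold changes near 0 turned sign. For GCA against PBS they ran from -0.705 to 0.416 (Fosb), -0.1 to 0.021 (Fosl2), -0.156 to 0.006 (Jun) and -0.131 to 0.19 (Atf3). For TCA against PBS they ran from -0.008 to 0.051 (Fosl2), -0.021 to 0.207 (Junb) and -0.37 to 0.01 (Myc). For GCA against TCA they ran from -0.248 to 0.073 (Atf3), -0.069 to 0.069 (Max) and -0.132 to 0.156 (Myc), and for Tβ-MCA against PBS from -0.129 to 0.095 (Atf3).

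The samples share replicate numbers that no source ties to a shared animal or day. Deviations of same-numbered samples of TCA and GCA correlated at 0.308 for replicate 3, 0.067 for replicate 4 and 0.147 for replicate 5. Over all groups, same-numbered pairs ran from 0.06 to 0.326 and other pairs from -0.268 to 0.154, so the ranges overlapped. Of the 11 samples with a same-numbered sample in another group, 10 correlated best with their own number. With the replicate block, 1498 genes and 3 members were called with Tβ-MCA, 3 genes and 0 members with TCA against PBS and 0 in the other comparisons, and Fosb turned to 0.606 (GCA) and 0.019 (Tβ-MCA) against PBS.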
